A study of Mus musculus with 5 samples.

Results

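The 7 genes H2-Aa, H2-Ab1, H2-Eb1, Cd74, Ciita, H2-DMa and H2-DMb1, which act in the presentation of antigen by major histocompatibility complex (MHC) class II molecules, were followed in sorted mouse blood stem and progenitor cells. They were selected by gene symbol, and all 7 were among the 11352 genes of the authors' deposited RNA-seq table. The table held 5 libraries in 2 groups. The group called Cux1-low had 2 libraries from mice with a knockdown of Cux1, a gene for a homeodomain transcription factor. The group Cux1-low;NrasG12D had 3 libraries from mice with the same knockdown and an NrasG12D allele, an oncogenic form of the small GTPase gene Nras, and these are called the NrasG12D libraries. Doxycycline and pI:C, an RNA mimic that raises interferon, had been given to the mice of both groups during 4 weeks. The sort had kept cells with KIT and SCA1 on the surface and without lineage markers or CD135. The question is how the added NrasG12D allele relates to class II levels on a Cux1-low background. The knockdown was shared by both groups, and no library with normal Cux1 was analysed here. The driver of the knockdown, the promoter behind the recombination of Nras, the strain and the age are not given in the sources used here. Nor is it given that the libraries of a group were separate animals. P-values therefore measure only the spread between these libraries, which may be technical.

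MHC class II molecules display peptides from the endosomal pathway to CD4 T cells. Each is a pair of an alpha and a beta chain that is built in the endoplasmic reticulum together with the invariant chain CD74, which fills the peptide groove and directs the complex to endosomes, where the DM molecule exchanges the remaining invariant chain fragment for peptide. Dendritic cells, B cells and macrophages are the best known carriers, and haematopoietic stem and progenitor cells can carry class II molecules too. Transcription of these genes depends on CIITA, a coactivator that does not bind DNA itself but is held at class II promoters by factors on the X box (the RFX complex and CREB family members) and on the Y box (NF-Y). Interferon gamma induces Ciita, in part through IRF1.

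Promoter sequences from RefSeq on GRCm38.p6 were matched for 4 of the 7 genes, H2-Aa, H2-Eb1, H2-DMb1 and H2-DMa. The 150 bases before the RefSeq start of 3 of them are shown because they hold the paired boxes through which CIITA acts. Capitals mark each match, on either strand, to CTNGNAAC, the letters taken here for an X box core, and to GATTGG, the letters taken for a Y box core.
H2-Aa (chr17:34287824-34287973, minus strand): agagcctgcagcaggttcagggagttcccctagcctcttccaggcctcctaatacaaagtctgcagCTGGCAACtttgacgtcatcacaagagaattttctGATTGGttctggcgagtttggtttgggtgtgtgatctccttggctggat
H2-Eb1 (chr17:34305717-34305866, plus strand): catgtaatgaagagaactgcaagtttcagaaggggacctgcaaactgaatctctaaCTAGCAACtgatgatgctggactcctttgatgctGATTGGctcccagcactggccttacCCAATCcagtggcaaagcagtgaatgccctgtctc
H2-DMb1 (chr17:34153041-34153190, plus strand): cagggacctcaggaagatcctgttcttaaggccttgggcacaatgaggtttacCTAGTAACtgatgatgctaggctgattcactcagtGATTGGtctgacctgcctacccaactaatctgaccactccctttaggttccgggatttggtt
The X box core began 84 bases before the RefSeq start in H2-Aa, 94 in H2-Eb1 and 97 in H2-DMb1. The Y box core began 35, 34 and 35 bases after it. GENCODE M21 starts H2-DMb1 earlier, at 34153072, so by that annotation both of its boxes lie inside the gene. The CCAATC nearer the start of H2-Eb1 is a Y box core read on the other strand. No base belonged to both kinds of match. Among 32841 RefSeq promoters, 10.9% held the X box letters and 14.6% the Y box letters in the 250 bases before the start, while 0.119% held an X box core followed on the same strand by a Y box core whose start lay 8 to 40 bases further on. The letters were chosen with these sequences in view, so the shares describe the letters and test nothing. Neither of the 2 RefSeq starts of H2-DMa had such a pair. GENCODE M21 starts H2-DMa before both, at 34119541, and the bases before that start were not searched. The 39 promoters with a pair belonged to 36 genes, of which 24 were listed in the table. Besides the 3 members, H2-Ob, the beta chain of the DM regulator H2-O, was among them, with 32 bases between the starts of its boxes. Of the 21 other listed genes with a pair, 11 had a negative and 10 a positive log2 fold change in the NrasG12D libraries, and none passed an adjusted p threshold of 0.05 in limma, a linear model test over all listed genes. The adjusted threshold was passed by 1.13% of all genes. By limma's unadjusted p under 0.05, 6 were lower and 4 higher, where 16.5% of all genes were lower and 14.8% higher. The authors' deposited table called 3 lower and 2 higher, where 9.14% of all genes were lower and 6.97% higher.

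Levels are given as normalized CPM, the authors' read counts scaled to the size of each library. The libraries held 16489711 to 20262498 reads over the listed genes, and 1 read was worth 0.0481 to 0.0608 normalized CPM. NrasG12D library 3 stood apart from libraries 1 and 2 and lay between the groups on the first principal component of all genes, at -4.16 against 29.1 and 38.0, with the Cux1-low libraries at -32.8 and -30.1. Results are therefore also given without it. Group differences come from limma, fitted over all 11352 genes on log2(normalized CPM + 1), with Benjamini-Hochberg adjusted p-values. By this test 128 genes (1.13%) passed, of which 99 (0.872%) fell and 29 (0.255%) rose in the NrasG12D libraries.

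All 7 class II genes were at lower levels in each of the 3 NrasG12D libraries than in either Cux1-low library. Groups that did not overlap in this direction were found for 27% of all listed genes. Of the 7, 1 fell past the adjusted threshold, against the background of 0.872%, and 6 did not pass. All 7 had an unadjusted limma p under 0.05 with a negative sign, against 16.5% of all genes, and 14.8% of all genes had such a p with a positive sign. For 5 of them the log2 fold change was -1 or less, against 4.31% of all genes. The median log2 fold change of the 7 was -1.47, while that of all genes was -0.0030. Without NrasG12D library 3, all 7 fell, where 19.4% of all genes did. Fewer cells that carry these transcripts and less of them per cell cannot be told apart in such bulk libraries.

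**Figure D1:**
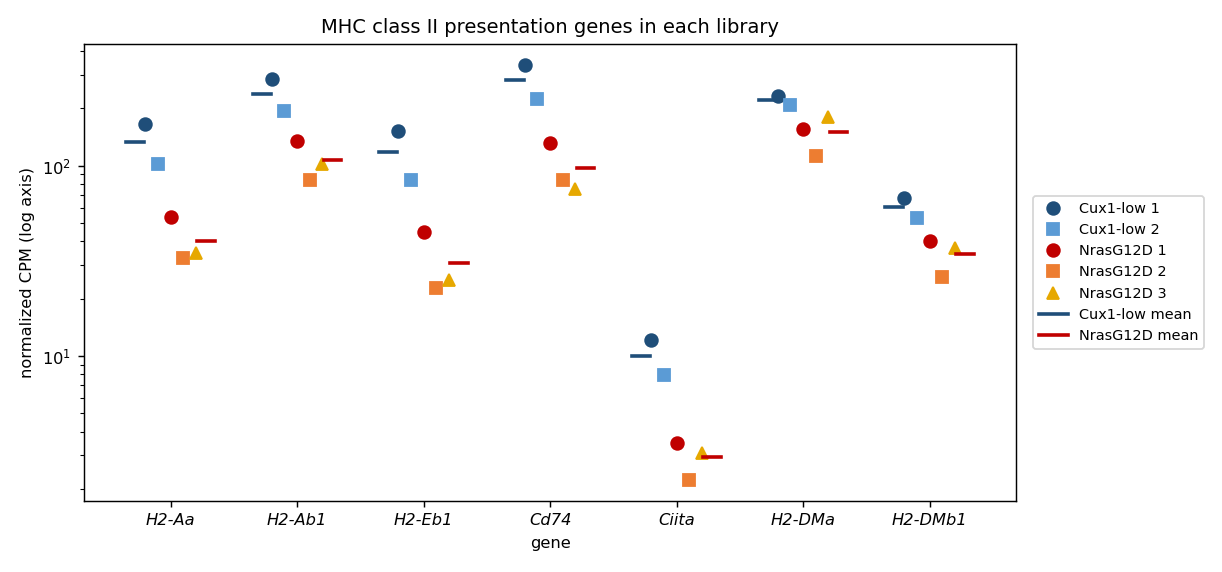
Normalized CPM (log axis) of the 7 class II genes in each of the 5 libraries, with a bar for each group mean (Cux1-low, n = 2, NrasG12D, n = 3). For every gene both Cux1-low libraries lie above all 3 NrasG12D libraries, with the narrowest gap for H2-DMa.

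H2-Aa, the alpha chain of the I-A molecule (chromosome 17, 34282744 to 34287823 on mm10, minus strand), had 164 normalized CPM in the first Cux1-low library, 102 in the second, and 53.8, 32.6 and 34.5 in NrasG12D libraries 1, 2 and 3. All pairs and triplets of values that follow keep this order. The lower Cux1-low library was thus 1.89 times the highest NrasG12D library. H2-Aa fell, by a log2 fold change of -1.69 (SE 0.27, 95% confidence interval -2.34 to -1.04, limma adjusted p = 0.0478). Each of 4 libraries was needed for this call, Cux1-low 1 and 2 and NrasG12D 1 and 2 (limma adjusted p without each = 0.387, 0.313, 0.152 and 0.0875). Without NrasG12D library 3 the adjusted p was 0.0076. With all 5 libraries the call was also lost with a pseudocount of 0.1 or 0.5, a mean value of at least 5, no variance trend or robust eBayes (limma adjusted p = 0.0540, 0.0508, 0.0536, 0.0582 and 0.0503). Over all alternatives the log2 fold change lay between -2.04 and -1.35.

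H2-Ab1, the beta chain that pairs with the H2-Aa product (chromosome 17, 34257689 to 34269419, plus strand), was at 284 and 194 against 135, 83.5 and 102 normalized CPM. Its 2 groups were 1.44 times apart at their nearest libraries, and its log2 fold change was -1.16 (SE 0.23, 95% confidence interval -1.71 to -0.60, limma adjusted p = 0.0598). H2-Eb1, the beta chain of the I-E molecule (chromosome 17, 34305867 to 34316674, plus strand), was at 151 and 83.5 against 44.6, 22.8 and 24.9 normalized CPM. It had the largest difference of the 7, with a ratio of group means of 0.263 and a log2 fold change of -1.90 (SE 0.34, 95% confidence interval -2.71 to -1.08, limma adjusted p = 0.0525). It also differed most within the groups, since Cux1-low library 1 was 1.81 times library 2 and NrasG12D library 1 was 1.96 times library 2.

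Cd74, which encodes the invariant chain and lies on chromosome 18, was at 338 and 225 against 132, 83.6 and 75.3 normalized CPM. In this gene NrasG12D library 3 was the lowest of all 5 libraries. The log2 fold change was -1.54 (SE 0.27, 95% confidence interval -2.18 to -0.90), and its limma adjusted p of 0.0508 missed the threshold narrowly.

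Ciita, the coactivator gene (chromosome 16, 10480059 to 10528418, plus strand), was the member of lowest level per kilobase. It had 12.1 and 7.94 against 3.49, 2.23 and 3.10 normalized CPM. These values rested on 246, 165, 68, 39 and 51 reads. The exact 95% Poisson intervals, which cover counting error only, reached from 6.78 to 9.25 in Cux1-low library 2 and from 2.71 to 4.42 in NrasG12D library 1, so the nearest libraries of the groups were separate beyond counting error. The ratio of group means was 0.294, and the log2 fold change was -1.47 (SE 0.26, 95% confidence interval -2.09 to -0.85, limma adjusted p = 0.0514). On the log2(value + 1) scale the change of so low a gene is understated. The exons of Ciita share 329 annotated bases with those of Dexi on the opposite strand, and Dexi was at 28.7 and 33.4 against 30.2, 22.6 and 27.0 normalized CPM, with groups that overlapped. The sources used here do not tell whether reads were counted by strand, so reads of the shared bases cannot be assigned with certainty.

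The DM genes, whose products load peptide, differed least. H2-DMb1, the DM beta chain (chromosome 17, 34153072 to 34160230, plus strand), was at 67.6 and 52.8 against 40.4, 26.1 and 36.8 normalized CPM (log2 fold change -0.80, SE 0.21, limma adjusted p = 0.0809). Its neighbour H2-DMb2 is a close copy, so the division of reads between them is uncertain. H2-DMb2 had 1.52 to 2.98 normalized CPM over the 5 libraries. H2-DMa, the DM alpha chain (chromosome 17, 34119541 to 34139101, plus strand), was at 231 and 209 against 156, 113 and 179 normalized CPM. The nearest libraries of the groups were 1.16 times apart, and the log2 fold change was -0.58 (SE 0.19, 95% confidence interval -1.04 to -0.12, limma adjusted p = 0.111). H2-DMa shares 360 annotated exon bases with Brd2 on the opposite strand, whose level was 332 to 337 against 324 to 390 normalized CPM.

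Levels were also set against Cd74 within each library, which removes differences in scaling between libraries. These ratios are not corrected for transcript length, and only their change from library to library is read. H2-Aa was 48.5% and 45.3% of the Cd74 level in the Cux1-low libraries and 40.9%, 39.0% and 45.8% in the NrasG12D libraries, so this ratio varied 1.24-fold while the H2-Aa level itself varied 5.03-fold. The ratio of Ciita to Cd74 varied 1.55-fold, that of H2-Ab1 1.61-fold and that of H2-Eb1 1.64-fold. H2-DMa varied more relative to Cd74. It was 68.3% and 92.9% of Cd74 in the Cux1-low libraries and 119%, 135% and 238% in the NrasG12D libraries, a 3.49-fold range. H2-DMb1 was 30.7%, 31.2% and 48.9% of Cd74 in the NrasG12D libraries, above 23.5% in Cux1-low library 2 and a lower share in library 1. A ratio of this kind shows unequal change only.

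**Figure D2:**
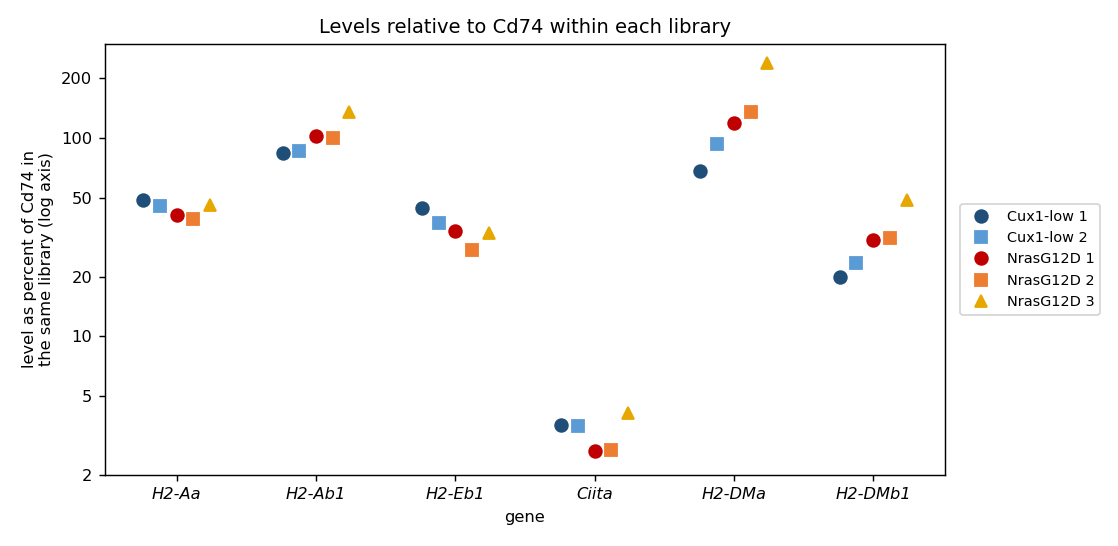
Level of each gene as a percent of the Cd74 level in the same library (log axis), 1 point per library. The points of H2-Aa lie within 39.0% to 48.5%, while those of H2-DMa spread from 68.3% to 238%.

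The order of the differences between groups resembled the order of the differences inside them. H2-Eb1 and H2-Aa, with the largest group differences, were 1.81 and 1.61 times as high in Cux1-low library 1 as in library 2. H2-DMb1 and H2-DMa, with the smallest, were 1.28 and 1.11 times as high. Library 1 exceeded library 2 for all 7 genes in both groups, by 1.39 to 1.96 times in the NrasG12D group. These library numbers carry no known link between the groups.

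Per kilobase of the principal transcript in GENCODE M21, Cd74 and H2-Ab1 led in the Cux1-low libraries, with means of 200 ± 56.9 and 197 ± 52.6 normalized CPM per kilobase (SD, n = 2), and did not differ beyond their spread. H2-DMa followed with 133 ± 9.44, then H2-Aa with 118 ± 39.2, H2-Eb1 with 70.2 ± 28.6, H2-DMb1 with 42.9 ± 7.48 and Ciita with 1.66 ± 0.485. Both H2-DMa libraries lay between those of H2-Aa, so H2-DMa and H2-Aa did not differ beyond their spread. The ranges of H2-Aa and H2-Eb1 overlapped narrowly, with H2-Eb1 in library 1 (90.4) just above H2-Aa in library 2 (90.3). Within each Cux1-low library, however, H2-Aa was above H2-Eb1. In the NrasG12D libraries H2-DMa was at 90.2 ± 20.4, H2-Ab1 at 88.0 ± 21.5 and Cd74 at 68.7 ± 21.6 (SD, n = 3), 3 levels whose ranges overlapped. Within each NrasG12D library H2-Ab1 was above Cd74, and so was H2-DMa, by little in library 1 (94.3 against 93.4). H2-Aa (35.7 ± 10.4) came next, below all libraries of these 3 genes. H2-DMb1 (24.5 ± 5.30) and H2-Eb1 (18.4 ± 7.22), whose ranges overlapped, followed, and then Ciita at 0.489 ± 0.108. On this scale H2-Eb1 was above H2-DMb1 in both Cux1-low libraries and below it in all 3 NrasG12D libraries.

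NrasG12D library 3 was placed differently by the class II genes than by the stem cell genes. On the log2(normalized CPM + 1) scale its position was set to 0 where it equalled the Cux1-low mean and to 1 where it equalled the mean of the other two NrasG12D libraries. The difference between gene groups was not tested. The median position of the 7 class II genes was 1.06, from 0.404 for H2-DMa to 1.34 for Cd74. For 12 of 14 stem and progenitor markers, those at least 0.5 log2 units apart between these means, the median was 0.339. The stem cell transcription factor gene Meis1, for example, was at 0.339.

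All 13 genes of a list of class II promoter factors, which also held Nlrc5, were in the table. Nlrc5 was the 1 that fell, 0 rose and 12 did not pass (median log2 fold change 0.03, beside -0.0030 for all genes). Over all genes, 0.872% fell and 0.255% rose. By unadjusted p under 0.05, 2 of the 13 were lower and 2 higher, where 16.5% of all genes were lower and 14.8% higher. The authors' deposited table called 2 lower and 0 higher, where 9.14% of all genes were lower and 6.97% higher. Nlrc5, a relative of CIITA that activates MHC class I genes, was at 113 and 106 against 44.6, 48.2 and 58.9 normalized CPM. Its groups were far apart relative to their spread, and it fell by a log2 fold change of -1.11 (limma adjusted p = 0.0355, SE 0.15), a call lost without any single library other than NrasG12D library 3 (limma adjusted p = 0.0701 to 0.365). Rfx5, the subunit by which the RFX complex contacts the X box, was at 65.1 and 61.0 against 36.0, 37.3 and 46.4 normalized CPM (log2 fold change -0.66, SE 0.15, limma adjusted p = 0.0695). Its groups did not overlap. The other RFX subunit genes were placed differently. Rfxap was at 52.2 to 53.0 against 62.8 to 69.1 normalized CPM, with higher values in all NrasG12D libraries, and Rfxank was at 21.8 to 25.0 against 20.2 to 23.7, with overlapping groups. The 3 NF-Y subunit genes Nfya, Nfyb and Nfyc had log2 fold changes of 0.03, 0.23 and 0.18.

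Of 15 genes known to act on Ciita or on interferon gamma signalling, 13 were listed. Of these, 1 fell, 0 rose and 12 did not pass (median log2 fold change -0.09), where 0.872% of all genes fell and 0.255% rose. By unadjusted p under 0.05, 5 of the 13 were lower and 1 higher, where 16.5% of all genes were lower and 14.8% higher. The authors' deposited table called 3 lower and 1 higher, where 9.14% of all genes were lower and 6.97% higher. Irf1, an interferon-induced activator of Ciita, was at 209 and 205 against 118, 93.4 and 134 normalized CPM (log2 fold change -0.86, SE 0.16, limma adjusted p = 0.0533). Socs1, an inhibitor gene of cytokine receptor signalling, was at 12.5 and 11.2 against 6.87, 4.39 and 6.80 normalized CPM. In Irf1 and Socs1 every NrasG12D library lay below both Cux1-low libraries, and library 2 was the lowest.

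Other genes of this list were placed differently. Ifngr1, the ligand-binding chain of the interferon gamma receptor, was at 263 and 311 against 335, 293 and 272 normalized CPM, with overlapping groups and a 95% confidence interval of its log2 fold change of -0.25 to 0.37. Spi1, which encodes the myeloid and B cell factor PU.1, was at 135 and 160 against 171, 111 and 139 normalized CPM and overlapped as well. Under some alternative settings the small differences of Ifngr1 and Spi1 changed sign. Irf8, a factor of monocytes, dendritic cells and B cells, was at 116 and 123 against 435, 350 and 120 normalized CPM, so that libraries 1 and 2 were high and library 3 was at the Cux1-low level.

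**Figure D3:**
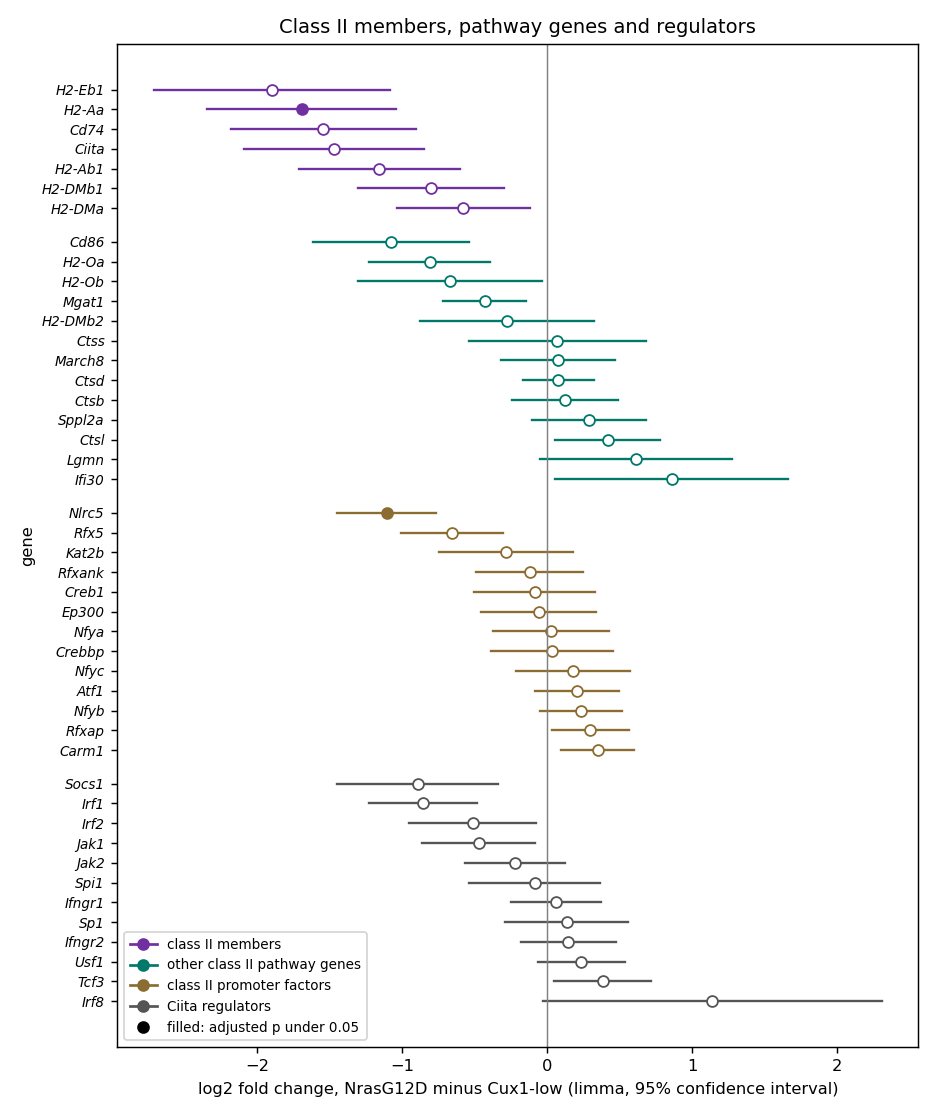
Log2 fold changes (NrasG12D minus Cux1-low, limma on log2(normalized CPM + 1), 3 against 2 libraries) with 95% confidence intervals for the class II members, 13 other class II pathway genes, 13 promoter factors and 12 of the regulators of Ciita. Filled points passed an adjusted p of 0.05, namely H2-Aa and Nlrc5, and the intervals of all 7 members lie below 0.

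Among 22 other symbols of the class II pathway, which include older and newer symbols of the same genes, 13 were listed, and none passed (limma, 5 negative and 8 positive, median log2 fold change 0.07). By unadjusted p under 0.05, 4 were lower (Cd86, H2-Oa, H2-Ob and Mgat1) and 2 higher, where 16.5% of all genes were lower and 14.8% higher. Mgat1, a gene of general protein glycosylation, is not particular to this pathway. The authors' deposited table called 3 lower (Cd86, H2-Oa and Mgat1) and none higher, where 9.14% of all genes were lower and 6.97% higher. H2-Ea, H2-Eb2, Cd40, Cd80 and Cd83 were not listed and have no value here. The alpha chain H2-Ea, the partner of H2-Eb1 in I-E, can therefore not be followed. Its other symbol H2-Ea-ps was not listed either. The levels of H2-Eb1 thus do not show whether these mice made I-E. Cd86, a costimulatory receptor ligand shown beside class II molecules, was at 9.46 and 6.59 against 2.97, 3.54 and 3.16 normalized CPM (log2 fold change -1.08, SE 0.23, limma adjusted p = 0.0621). H2-Oa, the alpha chain of H2-O, which restrains DM, was at 20.8 and 21.4 against 11.8, 9.99 and 13.2 normalized CPM (log2 fold change -0.81, SE 0.18, limma adjusted p = 0.0659). For both genes the groups did not overlap. Its partner H2-Ob was at 66.7 and 82.0 against 40.3, 36.0 and 67.8, so that library 3 lay with the Cux1-low libraries.

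The enzymes that prepare peptide and the invariant chain in endosomes were not placed with the class II chains. Ctss, whose product cathepsin S trims the invariant chain, was at 28.9 and 35.5 against 44.2, 36.0 and 23.9 normalized CPM. The cathepsin genes Ctsb and Ctsd had log2 fold changes of 0.12 and 0.07. Ifi30, an interferon-inducible thiol reductase of antigen processing, was at 12.8 and 10.3 against 23.4, 31.9 and 13.3 normalized CPM. All 3 of its NrasG12D values were above both Cux1-low values, with a log2 fold change of 0.86 (limma adjusted p = 0.143, SE 0.34). Without NrasG12D library 3, 3 genes of this list rose and 4 fell, where 18% of all genes rose and 19.4% fell.

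The sort was checked against cell type markers, since the class II genes are best known from other cells. All 14 stem and progenitor markers were listed, and Kit, whose product was used in the sort, was at 1359 and 1373 against 477, 569 and 816 normalized CPM. The summed level of these 14 was 4567 and 4671 in the Cux1-low libraries and 2208, 1833 and 3519 in the NrasG12D libraries. None of them passed limma (12 negative and 2 positive, median log2 fold change -1.20). By unadjusted p under 0.05, 9 were lower (16.5% of all genes), and the authors' deposited table called 8 lower (9.14% of all genes). Without NrasG12D library 3, 12 fell (19.4% of all genes). Mecom, a stem cell transcription factor gene, was at 62.4 and 55.7 against 14.2, 12.7 and 27.4 normalized CPM (limma adjusted p = 0.0517). The 2 positive genes were Slamf1 and Cd48. Slamf1 was at 12.2 and 8.09 against 11.2, 17.6 and 19.3 normalized CPM, with overlapping groups. Cd48 was at 138 and 125 against 174, 142 and 212, higher in all NrasG12D libraries. Gata2 was at 519 and 520 against 343, 257 and 546, so that library 3 lay above both Cux1-low libraries. Ly6a, the gene of SCA1, was at 44.7 and 48.7 against 24.2, 14.2 and 37.7. Most of these markers thus had lower values in the same libraries as the class II genes, and their part in the class II result was not tested.

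Of 22 dendritic cell markers, 13 were listed, and none passed limma (5 negative and 8 positive, median log2 fold change 0.17). By unadjusted p under 0.05, 1 was higher (14.8% of all genes). The authors' deposited table called 0, where 6.97% of all genes were higher and 9.14% lower. The summed level of the 13 was 801 and 817 in the Cux1-low libraries and 898, 1102 and 824 in the NrasG12D libraries. Cd24a, which other cell types also carry, made up 38.1% to 58.8% of this sum, at 333 and 311 against 418, 648 and 369 normalized CPM. Without it, a sum chosen after the values were seen, the other 12 came to 467 and 506 against 480, 455 and 455, so that NrasG12D libraries 2 and 3 lay below both Cux1-low libraries. Itgax, which encodes CD11c, was at 2.79 and 1.20 against 3.39, 2.17 and 1.46 normalized CPM. Zbtb46, a factor of classical dendritic cells, was at 18.5 and 21.0 against 33.5, 49.7 and 22.9 normalized CPM. Tcf4, a factor of plasmacytoid dendritic cells, was at 123 and 123 against 113, 109 and 116 normalized CPM, lower in all NrasG12D libraries (log2 fold change -0.13). The other negative log2 fold changes were those of Runx2 (-0.34), Clec10a (-0.31), Cbfa2t3 (-0.28) and Bst2 (-0.16), each with overlapping groups. The defining markers Batf3, Clec9a, Xcr1, Cd209a and Siglech were not among the listed genes. The part of dendritic cell transcripts in the class II result was not tested.

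Of 15 B cell markers, 9 were listed, and all had a positive sign, while none passed limma (median log2 fold change 2.37). By unadjusted p under 0.05, 4 were higher (14.8% of all genes), and the authors' deposited table called 6 higher (6.97% of all genes). Vpreb3, a gene of precursor B cells, was at 0.931 and 1.64 against 20.2, 48.0 and 2.31 normalized CPM. It was high in NrasG12D libraries 1 and 2, 2 of the 3 libraries in which the class II genes were low. The summed level of the 9 was 61.5 and 85.3 against 279, 572 and 64.8, and without Cd79b, the largest of them by mean, 13.4 and 33.9 against 217, 493 and 25.5. Ms4a1, Pax5 and Cd22 were not listed. The part of B cell transcripts in the class II result was not tested.

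Of 20 monocyte and macrophage markers, 12 were listed, with none passing limma (3 negative and 9 positive, median log2 fold change 0.35). By unadjusted p under 0.05, 2 were higher (14.8% of all genes), and the authors' deposited table called 2 higher (6.97% of all genes). Their summed level was 600 and 672 against 1040, 840 and 566 normalized CPM, so that library 3 was the lowest of the 5, as it was without the largest gene Lyz2 (371 and 425 against 827, 699 and 336). Cd68 was at 13.3 and 17.8 against 30.4, 22.0 and 27.0, and Ly6c2 at 41.4 and 57.4 against 152, 128 and 57.7 normalized CPM. Adgre1, which encodes the macrophage marker F4/80, was at 3.14 and 4.57 against 2.67, 0.97 and 2.86, lower in all NrasG12D libraries (log2 fold change -0.66, SE 0.35, limma adjusted p = 0.239). The other negative log2 fold changes were those of Lyz2 (-0.32) and Ccr2 (-0.10), with overlapping groups. Of 18 T, NK and innate lymphoid markers, 7 were listed, with none passing limma (3 negative and 4 positive, median log2 fold change 0.10). Of these 7, 1 was higher by unadjusted p under 0.05 (14.8% of all genes) and 1 in the authors' deposited table (6.97%). Their summed levels were 314 and 346 against 396, 321 and 410 normalized CPM, and without Nkg7, the largest of them, 90.2 and 103 against 116, 147 and 87.2. The marker Il1rl1 was at 15.2 and 23.7 against 29.5, 50.7 and 31.8 normalized CPM, and Il7r at 2.84 and 4.04 against 16.5, 28.8 and 2.73. Gata3 was at 31.6 and 29.6 against 24.4, 28.2 and 14.6, lower in all NrasG12D libraries (log2 fold change -0.48, SE 0.27, limma adjusted p = 0.257), and Lck and Gzmb had log2 fold changes of -0.12 and -0.01. Without NrasG12D library 3, 9 of 9 listed B cell and 6 of 12 monocyte and macrophage markers rose. So did 5 of 13 dendritic cell and 2 of 7 T, NK and innate lymphoid markers. None of the 4 lists held a gene that fell, where 18% of all genes rose and 19.4% fell.

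**Figure D4:**
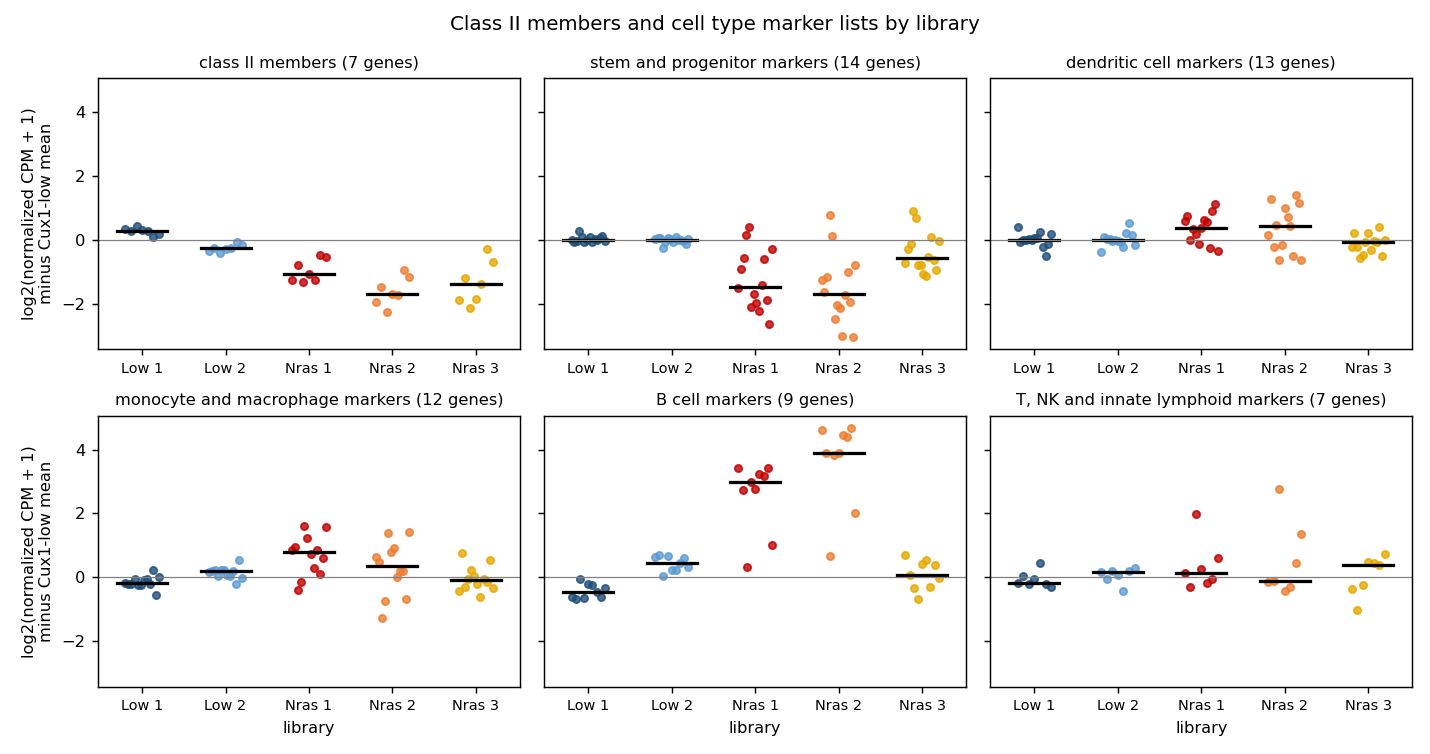
Log2(normalized CPM + 1) of each listed gene minus its Cux1-low mean, by library, for the class II members and 5 cell type marker lists, with a bar at the median of each list. The medians of the class II members are -1.06, -1.71 and -1.40 in the 3 NrasG12D libraries, while those of the stem and progenitor markers are -1.47, -1.70 and -0.58 and those of the B cell markers 2.97, 3.90 and 0.07.

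The class II genes on chromosome 17 lie in 1 run with other genes. From H2-DMa to H2-Eb1 (34119541 to 34316674, 197 kb) GENCODE M21 places 18 genes, of which 12 were listed, 5 of them members. Of the other 7, 6 had a negative sign and none passed limma. By unadjusted p under 0.05, 3 of them were lower (16.5% of all genes), and 1 was lower in the authors' deposited table (9.14%). The largest difference was that of Tap1, a subunit of the peptide transporter that serves MHC class I, at 488 and 454 against 309, 258 and 305 normalized CPM (log2 fold change -0.70, SE 0.12, limma adjusted p = 0.0508). H2-Ob, between Tap2 and H2-Ab1, had a log2 fold change of -0.67. The proteasome subunit genes Psmb9 and Psmb8, which lie between H2-DMb1 and Tap2, had log2 fold changes of -0.37 and -0.36 (limma adjusted p = 0.139 and 0.244), and Brd2, at the edge of the run, was at 0.05.

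Other genes were ranked by likeness to the mean centred log2 profile of H2-Aa, H2-Ab1, H2-Eb1 and Cd74, as the root-mean-square difference over the 5 libraries. The median difference over all listed genes was 0.853. Ciita, which did not enter the profile, had 0.179 and rank 4 of 11352, behind H2-Aa, Cd74 and Fzd6. H2-DMb1 had 0.429 and rank 125, and H2-DMa 0.585 and rank 743. Of the 10 nearest genes outside the 7, those named here are Fzd6, Coro2b, Rapgefl1, Gbp9, Slc22a15, Nsg1, Palld and Clu, and 1 of the others was a predicted gene model. Fzd6, a Frizzled receptor gene of WNT signalling and the nearest of them (0.136), was at 33.2 and 25.8 against 13.03, 6.11 and 7.41 normalized CPM. Gbp9, an interferon-inducible guanylate-binding protein gene (0.235), was at 7.35 and 6.88 against 2.26, 1.48 and 1.76 and fell (log2 fold change -1.53, limma adjusted p = 0.0430). All of these profiles share the same 5 libraries, and each has its highest value in Cux1-low library 1. The ranking picked genes near a profile that is low in all NrasG12D libraries. Their lower values there, with the call of Gbp9, are therefore no separate result.

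The authors' own comparison called more of the members. By its adjusted p, 6 of the 7 were lower past 0.05 in the authors' deposited table, where 9.14% of all genes were lower and 6.97% higher. The log2 fold changes in the authors' deposited table were -1.72 for H2-Aa, -1.93 for H2-Eb1, -1.76 for Ciita, -1.54 for Cd74, -1.16 for H2-Ab1 and -0.81 for H2-DMb1. H2-DMa had -0.56 with an adjusted p of 0.0539 in the authors' deposited table. All signs were those found with limma, and the order differed in that Ciita stood ahead of H2-Aa and Cd74.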

How the data were processed

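The authors' deposited table gives 1 signal value per gene and library, headed CPM per the file headers. Its columns sum to 971746 to 1026780, so these are not plain CPM, and they were used as deposited. TopHat, HTSeq and edgeR and the builds hg19 and mm10 are named in the submitters' processing notes, without roles or versions. The deposited log2 fold change, mean log2 CPM, likelihood ratio score, p-value and adjusted p-value are the authors' comparison. Every listed gene exceeds 1 in at least 3 of 5 libraries, so a gene above 1 only in the 2 Cux1-low libraries cannot be listed, and counts of lower genes leave such genes out. Values were whole multiples of 1 step per library (tolerance 0.01 of a step), which gave the reads, but the unit check did not accept them for a count test.

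Here limma 3.58.1 in R 4.3.3 was fitted with a trended variance on log2(value + 1), with the group as the only term (3 NrasG12D, 2 Cux1-low libraries). A filter asking for 2 libraries at 1 or more removed no gene. No pair of libraries was a repeat deposit, by the scatter of their reads (variance 15.3 to 116 times that of sampling). Alternatives covered pseudocount, filter, scaling, variance model, replicate block and leaving out each library. Python 3.11.15, numpy 2.4.6, pandas 2.3.3 and matplotlib 3.10.9 served for the rest. Positions are from GENCODE M21 (mm10) and promoters from RefSeq (GRCm38.p6).

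The members and the gene lists were chosen with earlier results of these data known. All members were named. From each list the rule named up to 4 genes past the threshold, filled up to 2 by smallest p, plus Rfx5, Nlrc5, Ifngr1, Irf1 and Spi1, up to 4 genes of the chromosome 17 run and the 10 genes of nearest profile. Some genes that the rule selects are counted but not reported here. Other genes named were chosen after their values were seen.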

Additional observations from a re-analysis of the deposited data

How the results depend on the processing

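All 7 members had a negative log2 fold change in the main fit and under all 16 alternatives, from -2.32 to -0.39, while the number past the threshold depended on the setting. It was 1 in the main fit, 0 with a pseudocount of 0.1 or 0.5, a mean value of at least 5 or robust eBayes, 4 with a pseudocount of 5 or with columns rescaled to a common sum, 3 with quantile normalization and 6 in the authors' deposited comparison. Leaving out 1 library gave 0 to 7 members, with 7 only without NrasG12D library 3. Of all genes, 128 passed in the main fit, 349 with a pseudocount of 5, 213 after rescaling, 228 after quantile normalization, 1829 in the authors' deposited comparison and 3 to 4243 without 1 library. With the replicate block 7 members and 4163 genes passed. That fit spends NrasG12D library 3 on its own block and so compares the same 4 libraries as leaving it out. The numbers are only numbers in the labels, and deviations of same-numbered libraries correlated at -0.19 and -0.0035 over genes, so no pairing was taken from them. The log2 fold change of Ifngr1 turned to -0.0028 after rescaling, -0.037 after quantile normalization, -0.059 without Cux1-low library 1 and -0.020 without NrasG12D library 1 (highest without 1 library, 0.18). That of Spi1 turned to 0.036 without Cux1-low library 2 and 0.071 without NrasG12D library 2 (lowest without 1 library, -0.24). Without a variance trend Ciita passed (limma adjusted p = 0.0476) and H2-Aa did not (0.0582). Depth bears most on Ciita, with 39 to 246 reads per library. The causes of these shifts were not tested.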
